A study of Drosophila melanogaster with 2 samples.

Results

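Strong sites of replicate 2 only are ChIP-seq peaks of GFP-tagged hng2 that ranked high in replicate 2 and had no counterpart nearby in replicate 3. They were taken from the 3170 peaks of highest signal in the replicate 2 list on genome build dm6. A site was kept where no summit of the full replicate 3 list lay within 500 bp of its own summit. This left 144 of the 3170 strong sites, or 4.54%. The sites were chosen by measured values, namely the signal and the summit positions of both replicates, so their rank and their distance to replicate 3 are described here and not tested. The same rule turned round, with replicate 3 as the list of strong sites, gave 277 of 3170 sites, or 8.74%, which are called replicate 3 only sites. The remaining 3026 strong sites of replicate 2 and 2893 of replicate 3 are called the other strong sites.

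The chromatin came from mixed-sex Drosophila melanogaster embryos (whole organisms, age 0 to 14 h) of the transgenic strain CG8359-GFP. That line stably expresses CG8359, the gene now called hng2, with GFP fused to its C terminus. Biological replicates 2 and 3 form 1 group, carry the same transgene and were pulled down with an antibody to GFP by the sample description, while the antibody entry names CG8359. Chromatin was sonicated to 200 to 800 bp. No untreated or mutant group is among the samples, and all lists of a build were called against the same control alignment.

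hng2 (hinge2) belongs to the MADF and BESS family of Drosophila proteins. The MADF domain is a DNA-binding fold related to Myb, and the BESS motif mediates contacts between proteins. Family members such as Adf1 and stonewall act in transcription and chromatin, and the hinge genes are known from work on the wing hinge. In ChIP-seq, DNA bound by a protein is pulled down and sequenced, and the summit is the base with the highest enrichment within a peak. Each embryo holds many tissues and stages, so a peak is an average over cells.

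Each replicate's dm6 list held 30000 rows, and the depth of the libraries is unknown because the lists hold no read counts. A site that is missing from a replicate's list is therefore not shown to be unbound, and why it is missing was not tested. The signal is the authors' own value per peak, set against the control and not scaled between lists. It serves here to rank peaks within a list. Sites of a library are not replicates of a condition, so shares carry 95% exact (Clopper-Pearson) intervals that cover counting error over sites only. Ratios of shares carry 95% Katz intervals, which are approximate and also cover counting error only.

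The sequences at some of the strongest sites are given as examples, and the base composition of all sites is counted further on. The 100 bases centred on the summit are given 5′ to 3′ on the plus strand of dm6, from the RefSeq copy of that assembly, with G and C in capitals. The first 4 belong to the replicate 2 only sites of highest signal. They hold 24, 33, 45 and 22 G or C bases of 100.
CG42342, chr3R:16524260-16524359: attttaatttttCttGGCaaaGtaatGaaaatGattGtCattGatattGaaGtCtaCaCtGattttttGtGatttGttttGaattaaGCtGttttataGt
CG7330, chr3L:18148613-18148712: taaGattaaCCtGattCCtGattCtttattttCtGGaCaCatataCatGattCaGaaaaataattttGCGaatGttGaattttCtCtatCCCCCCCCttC
Ubr3, chrX:7938223-7938322: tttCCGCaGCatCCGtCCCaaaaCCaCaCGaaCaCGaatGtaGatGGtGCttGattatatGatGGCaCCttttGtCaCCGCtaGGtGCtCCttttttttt
ninaG, chr3R:11421836-11421935: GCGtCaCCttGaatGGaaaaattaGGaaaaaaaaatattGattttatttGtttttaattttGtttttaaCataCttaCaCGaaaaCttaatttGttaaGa

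Beside them stand the strongest replicate 3 only sites that passed the same choice of arms and lay clear of annotated UTRs. They hold 45, 50 and 35 G or C bases of 100. Runs of alternating G and T are visible in the first of them, in the intron of CG46467, and alternating G and A in the one of ctrip.
CG46467, chr3R:9881671-9881770: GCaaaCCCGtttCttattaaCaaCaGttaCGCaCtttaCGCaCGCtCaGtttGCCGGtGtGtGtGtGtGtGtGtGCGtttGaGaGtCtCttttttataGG
ctrip, chr3R:4803362-4803461: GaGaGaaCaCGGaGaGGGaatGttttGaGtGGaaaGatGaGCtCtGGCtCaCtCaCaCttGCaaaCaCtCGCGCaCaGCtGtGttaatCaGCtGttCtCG
Atpalpha, chr3R:20950388-20950487: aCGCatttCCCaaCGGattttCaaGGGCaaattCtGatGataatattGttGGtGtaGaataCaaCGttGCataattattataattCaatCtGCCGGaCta

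The replicate 2 only sites came from the lower part of the strong peaks. Their ranks in replicate 2 ran from 720 to 3164 with a median of 2470, against a range of 1 to 3170 and a median of 1524 for the other strong replicate 2 sites. Their signals spanned 90.3 to 241 (median 107), against 90.2 to 9188 (median 151). None of the 634 strongest peaks of replicate 2 was among them. In 10 equal bins of the strong peaks, from highest to lowest signal, they numbered 0, 0, 4, 3, 12, 11, 25, 22, 31 and 36. Replicate 3 only sites numbered 0, 3, 14, 11, 21, 32, 33, 50, 57 and 56 in the same bins of replicate 3.

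**Figure D1:**
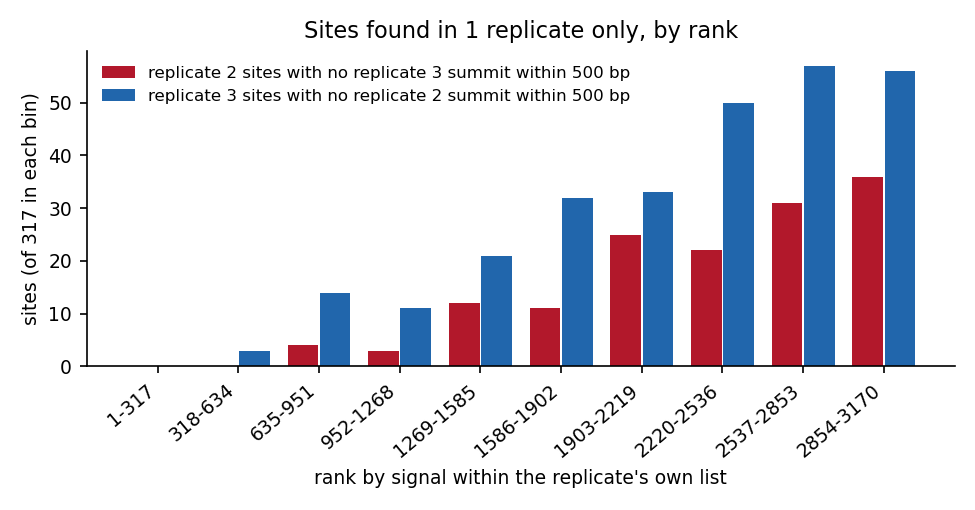
Number of sites (y axis) with no summit of the other replicate within 500 bp, in bins of 317 peaks in order of signal within each replicate's own list (x axis), for replicate 2 (red) and replicate 3 (blue). Replicate 2 bars run from 0 in the strongest bin to 36 in the weakest, and replicate 3 bars from 0 to 56.

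The rise with rank went on below the strong peaks. In replicate 2, the share of peaks without a replicate 3 summit within 500 bp was 0.400% among ranks 1 to 1000, 3.10% among ranks 1001 to 2000 and 9.32% among ranks 2001 to 3170. It was 28.1% among ranks 3171 to 10000, 52.9% among ranks 10001 to 20000 and 64.9% among ranks 20001 to 30000. Over the full lists it was 46.2% of the 30000 replicate 2 peaks, against 43.0% of those of replicate 3.

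The rule set every distance over 500 bp, and most replicate 2 only sites had a replicate 3 summit within 1000 bp. No expected distance to the 30000 replicate 3 summits was set beside these values, so they do not show a matching peak. The distance to the nearest replicate 3 summit had a median of 808 bp, with quartiles of 621 and 1527 bp. For 88 sites (61.1%, 52.6 to 69.1) it was 501 to 1000 bp, for 26 it was 1001 to 2000 bp, for 14 it was 2001 to 5000 bp, and for 16 (11.1%, 6.49 to 17.4) it was over 5000 bp. Among replicate 3 only sites, 41.5% (35.7 to 47.6) lay within 501 to 1000 bp of a replicate 2 summit. The peak interval of 1 of the 144 sites overlapped a replicate 3 interval, a low count that the distance limit itself nearly fixes. Every replicate 2 only peak was 396 bp wide, and the neighbouring replicate 3 summit had a median rank of 13401. At the limit, the sites of luna, CG45088 and Rtca were just inside with replicate 3 summits at 501, 502 and 502 bp, and those of Tsp29Fb, Svil and lola were just outside at 482, 487 and 495 bp. At the signal limit, the weakest 3 sites had ranks 3152, 3156 and 3164, and the next peaks of replicate 2 that met the distance limit had ranks 3174, 3176 and 3181.

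A stronger summit of replicate 2 itself lay within 1000 bp of 10 of the 144 sites (6.94%, 3.38 to 12.4), against 8.89% of the other strong replicate 2 sites. Pairs of replicate 2 only sites within 500 bp of each other did not occur, since merging such pairs left 144.

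The authors' optimal list was made with the irreproducible discovery rate (IDR), a method that scores how well the ranks of peaks match between replicates. An optimal summit within 100 bp was found for 41 of the 144 sites (28.5%, 21.3 to 36.6), against 87.1% (85.9 to 88.3) of the other strong replicate 2 sites. It was found for 84.4% of all 3170 strong replicate 2 sites. When the other strong sites were weighted to the same ranks, their share was 71.6%. Among replicate 3 only sites, 10 of 277 (3.61%, 1.74 to 6.54) were in the optimal list. The optimal list draws on the relaxed list of the pooled replicates, in which replicate 2 takes part, so these shares are not independent of the choice of sites. The rule keeps only summits over 500 bp from replicate 3, which leaves peaks of 396 bp little room to overlap a replicate 3 interval. A place in the optimal list therefore does not show a match with replicate 3 here. A pooled summit lay within 100 bp of 140 of the 144 sites (97.2%, 93.0 to 99.2), against 97.8% of the other strong replicate 2 sites. The nearest pooled summit had a median rank of 3858 for the 144 sites, against 1522 for the other strong replicate 2 sites and 2494 for those weighted to the same ranks.

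The 41 sites in the optimal list had replicate 2 ranks of 720 to 2360 (median 1636) and signals of 110 to 241. The 103 sites outside it had ranks of 1841 to 3164 (median 2702) and signals of 90.3 to 132. The ranks overlapped between 1841 and 2360. Promoters made up 18 of the 41 (43.9%, 28.5 to 60.3) and 46 of the 103 (44.7%, 34.9 to 54.8).

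**Figure D2:**
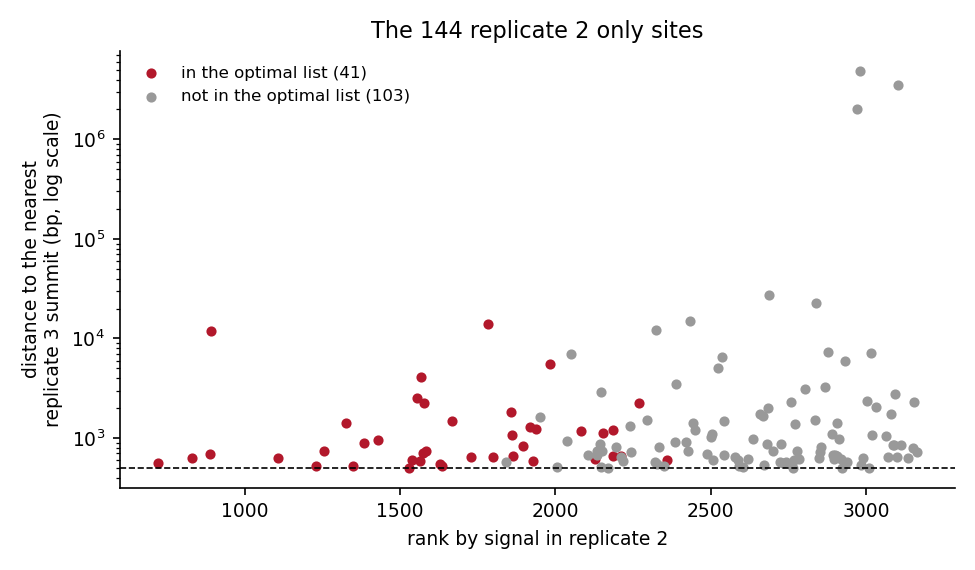
Distance from each of the 144 sites to the nearest replicate 3 summit (y axis, bp, log scale) against its rank in replicate 2 (x axis), with sites in the optimal list in red (41) and the rest in grey (103). The dashed line marks the limit of 500 bp. Sites in the optimal list stop at rank 2360, and 3 sites lie 2025279 bp or more from any replicate 3 summit.

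The 25 sites of highest signal were all in the optimal list, and 12 of them lay at promoters, 8 in introns and 5 in intergenic DNA. The strongest was in an intron of CG42342 (chr3R:16524112-16524507), with a signal of 241, rank 720 and a replicate 3 summit of rank 459 at 561 bp. The site of CG7330 (chr3L:18148465-18148860) lay 260 bp from its transcription start site (TSS), with a signal of 222 and rank 832. An intron of Ubr3, a ubiquitin ligase gene on the X, held the site at chrX:7938075-7938470, with a signal of 215 and rank 887. The site of ninaG, which codes for an oxidoreductase needed to make the chromophore of rhodopsin, lay 193 bp from its TSS at chr3R:11421688-11422083. It had a signal of 214 and rank 893, and the nearest replicate 3 summit was 11960 bp away, so it was the one of the 4 that stood apart from replicate 3 by more than 1000 bp.

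The next sites lay at or in genes of varied function. The intron site of Tlk, the tousled-like kinase that acts on chromatin assembly factors, had a signal of 188 and a GC content of 20%. A site with a signal of 163 lay in intergenic DNA with RYBP, a Polycomb-associated protein gene, as the nearest coding gene at 6346 bp. An intron of simj, which codes for a p66 subunit of the nucleosome remodelling complex NuRD, held a site with a signal of 158. The kinase gene Nuak held an intron site with a signal of 148. Promoter sites were found for Imp, which codes for an RNA-binding protein, at 399 bp from the TSS, and for sei, a potassium channel gene, at 63 bp, each with a signal of 148. AMPdeam, which codes for AMP deaminase, had a site in an intron 944 bp from a TSS with a signal of 150.

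The site nearest to tsh, a zinc-finger gene of trunk identity, lay in intergenic DNA 17946 bp from its TSS with a signal of 148. The promoter site of amn, a neuropeptide gene known from memory work, had a signal of 142 and lay 489 bp from the TSS, within the gene Hers as well. Gli, which codes for a protein of tricellular junctions, had a promoter site with a signal of 134. The other named genes were CG43736, CG4497, CG33116, CG43245, CG45088, CG2772, CG9662, plh, CG9471, CG10433 and CG18747, with signals of 135 to 175.

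In all, 171 of 13968 protein-coding genes (1.22%) had a replicate 2 only site within 2000 bp of a TSS or inside the gene, and 385 genes had a replicate 3 only site. Among 21 gene lists, none held more than 2 genes with a replicate 2 only site. The Dpp pathway had 2 of 19, shn and sog. The site in shn, a zinc-finger regulator of Dpp targets, had rank 2673, and the site in sog, an inhibitor of BMP ligands, had rank 2922 with a replicate 3 summit at 504 bp. Cytoplasmic ribosomal protein genes had 1 of 92 (1.09%, 0.0275 to 5.91), against 64 of 92 with any strong replicate 2 site. That one was RpS6, a small-subunit protein gene on the X, with a summit 45 bp from a TSS, rank 2524 and no replicate 3 summit within 5077 bp.

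A further 9 lists had 1 gene each. They were Su(z)12 (a Polycomb repressive complex subunit), fz (a Wingless receptor), htl (an FGF receptor), ftz-f1 (a nuclear receptor of the ecdysone response) and sei. The others were kirre (an adhesion protein of muscle founder cells), hth (a homeodomain protein), Gr32a (a gustatory receptor) and stwl (stonewall, of the MADF and BESS family itself). Of these, htl ranked 1919 with a promoter summit 411 bp from a TSS, and stwl ranked 2213 with a promoter summit 277 bp from a TSS. The site counted for Gr32a lay outside that gene, 604 bp from its TSS, and was nearer to the TSS of Idua, at 349 bp. The site in fz was 64803 bp from its TSS, and hth, kirre and ftz-f1 also held theirs in introns. No gene of the Hox, segmentation, Notch, insulator, neuronal identity, hemocyte and trachea, axon guidance, heat shock, cuticle or dosage compensation lists had such a site. Apart from the cuticle list these lists were small, and the interval for 0 of 8 Hox genes reached 36.9%. For 0 of 120 cuticle genes it reached 3.03%, but only 4 of the 120 had any strong replicate 2 site.

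At promoters, in introns and in intergenic DNA, the shares of replicate 2 only sites were closer to those of the other strong replicate 2 sites than to those of replicate 3 only sites. Promoters, within 500 bp of a TSS, held 64 of 144 sites (44.4%, 36.2 to 52.9), against 40.7% (39.0 to 42.5) of the other strong replicate 2 sites and 72.2% (66.5 to 77.4) of replicate 3 only sites. Promoters made up 40.9% of all strong replicate 2 sites and 13.3% of main-arm bases. The log2 ratio of the shares was 0.13 (-0.15 to 0.40) against the other strong replicate 2 sites, an interval that spans 0. It was -0.70 (-0.98 to -0.42) against replicate 3 only sites. Among the other strong replicate 3 sites promoters made up 44.7%. At matched ranks the promoter share of the other strong replicate 2 sites was 35.3%, just below the interval of the replicate 2 only sites. The log2 ratio to that matched share was 0.33, for which no interval was computed.

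Introns held 58 sites (40.3%, 32.2 to 48.8), against 40.1% of the other strong replicate 2 sites and 18.8% (14.3 to 23.9) of replicate 3 only sites. Intergenic DNA held 21 (14.6%, 9.26 to 21.4), against 16.0% and 2.89% (1.25 to 5.61). The remaining site lay in a 5′ UTR. None lay in a coding exon, a 3′ UTR or another exon, where the exact interval for 0 of 144 reaches 2.53% and a limit of 3 counts is 2.08%. These classes were rare among the other strong replicate 2 sites too, at 0.628%, 0.793% and 1.32%. Sites over 2000 bp from any TSS made up 36.1% (28.3 to 44.5), against 35.5% and 12.3% (8.65 to 16.7). Of the other strong replicate 3 sites, 38.4% lay in introns, 12.7% in intergenic DNA and 32.9% over 2000 bp from any TSS. These shares too were closer to those of the replicate 2 only sites than the replicate 3 only shares were.

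The X held 32 of the 144 sites (22.2%, 15.7 to 29.9), against 18.4% of the other strong replicate 2 sites, 11.6% (8.04 to 15.9) of replicate 3 only sites and 17.1% of main-arm bases. Of the other strong replicate 3 sites, 14.9% (13.6 to 16.2) lay on the X. The log2 ratio of the X shares was 0.27 (-0.18 to 0.73) against the other strong replicate 2 sites and 0.94 (0.30 to 1.59) against replicate 3 only sites. Arm 2R held 17.4% (11.6 to 24.6), against 16.8% and 26.7% (21.6 to 32.3). Arms 4 and Y held none, with the same exact upper bound of 2.53%, against 0.364% and 0% of the other strong replicate 2 sites. Of the 32 sites on the X, 11 were at promoters (34.4%, 18.6 to 53.2), against 53 of the 112 on the autosomes (47.3%, 37.8 to 57.0). Male and female embryos were pooled in both replicates.

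**Figure D3:**
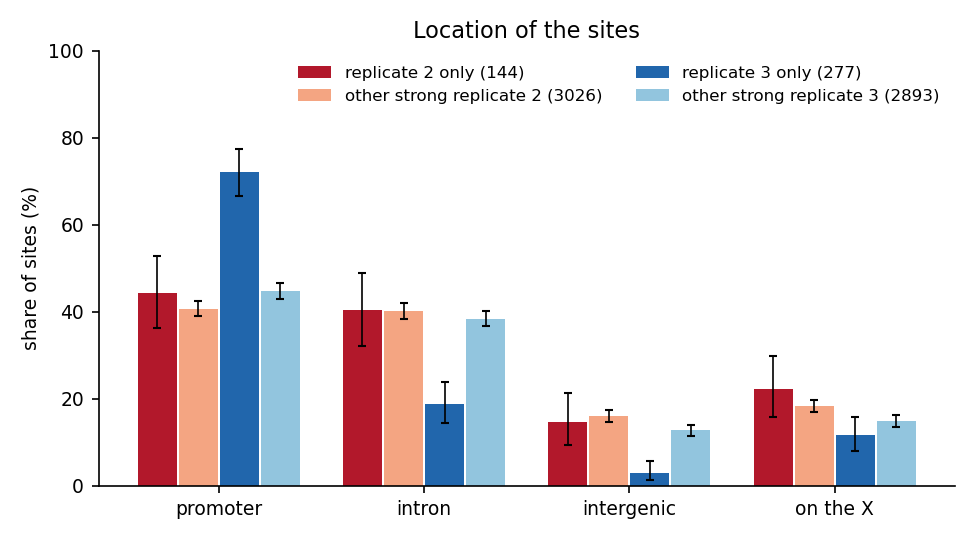
Share of sites (y axis, %) at promoters, in introns, in intergenic DNA and on the X (x axis) for the replicate 2 only sites (144), the other strong replicate 2 sites (3026), the replicate 3 only sites (277) and the other strong replicate 3 sites (2893); bars are shares and lines 95% exact intervals. Replicate 2 only sites stand at 44.4% for promoters, and replicate 3 only sites at 72.2%.

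Base composition differed between the sites of replicate 2 only and those of replicate 3 only. The median GC content of the 200 bp around the summit was 34% in replicate 2 only sites (quartiles 29.5 and 38.6), against 35% in the other strong replicate 2 sites and 46.5% (40.5 and 51.5) in replicate 3 only sites. The other strong replicate 3 sites had 40.5%. A GC content of 40% or more was found in 28 of 144 replicate 2 only sites (19.4%, 13.3 to 26.9), against 28.2% (26.6 to 29.8) of the other strong replicate 2 sites and 80.1% (75.0 to 84.7) of replicate 3 only sites. The gap was present within location classes. Promoter sites had a median of 32.5% in replicate 2 only sites against 47% in replicate 3 only sites, and intron sites 34% against 44.8%. GC content moved with the replicate in the other strong sites too, and its part in which sites were listed was not tested.

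**Figure D4:**
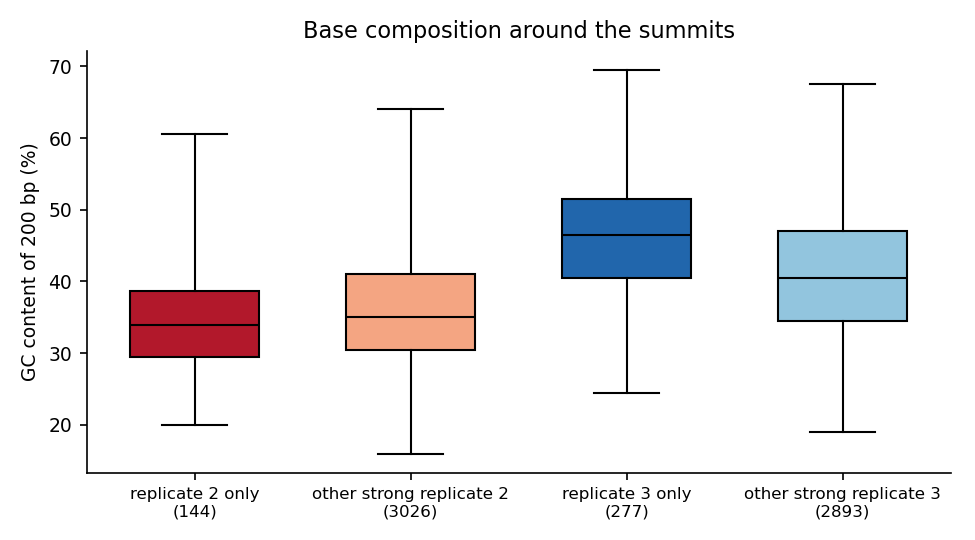
GC content of the 200 bp centred on each summit (y axis, %) in the replicate 2 only, other strong replicate 2, replicate 3 only and other strong replicate 3 sites (x axis, number of sites in brackets); boxes span the quartiles, the line is the median and whiskers reach the lowest and highest site. Medians are 34, 35, 46.5 and 40.5%.

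Motifs of known factors were searched as plain strings on both strands of the same 200 bp. GAGAGAG, the repeat bound by GAGA factor, was found in 7 of 144 replicate 2 only sites (4.86%, 1.98 to 9.76), against 3.57% of the other strong replicate 2 sites and 21.7% (17.0 to 27.0) of replicate 3 only sites. The repeat CACACACA was found in 5 (3.47%, 1.14 to 7.92), against 3.37% and 13.0% (9.27 to 17.5). Over all 30000 replicate 2 peaks the shares were 2.85% and 5.03%. TAATTA, the core bound by homeodomain proteins, was found in 32 (22.2%, 15.7 to 29.9), against 17.3% and 8.66% (5.63 to 12.6), and in 12.9% of the whole list. TATAAA, the letters of the TATA box, was found in 62 (43.1%, 34.8 to 51.6), against 35.4% and 18.8% (14.3 to 23.9), and in 23.2% of the whole list. The other strong replicate 3 sites lay between the replicate 2 only and replicate 3 only sites for all of these strings. They held GAGAGAG in 7.88%, CACACACA in 6.98%, TAATTA in 12.9% and TATAAA in 25.3%. TAATTA and TATAAA hold only A and T, and no motif share was adjusted for base composition. The shares depend on the window: in 100 and 400 bp, replicate 2 only sites held TATAAA in 24.3% and 54.9%, TAATTA in 13.2% and 32.6%, and GAGAGAG in 2.08% and 8.33%.

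AGNTGGCGC, the core of the insulator protein CTCF, was found in 1 of 144 sites (0.694%, 0.0176 to 3.81), against 1.42% of the other strong replicate 2 sites and 0.993% of the whole list. The core bound by the insulator protein su(Hw) was found in 5 (3.47%, 1.14 to 7.92), against 1.26% (0.890 to 1.72) of the other strong replicate 2 sites and 1.44% of replicate 3 only sites. The whole list held it in 1.05%. Replicate 2 only sites held it in 2.08% of windows of 100 bp and 4.86% of windows of 400 bp. The log2 ratio to the other strong replicate 2 sites in 200 bp was 1.47 (0.14 to 2.79), from 5 sites and 1 of 19 motifs searched. That interval is approximate, and the exact interval of the share, 1.14 to 7.92%, includes the 1.26% of the other strong sites. The matches in the sites of beta4GalNAcTB and CG34260 are shown with the core in capitals, on the plus strand of dm6.
beta4GalNAcTB, chr3R:29034219-29034318: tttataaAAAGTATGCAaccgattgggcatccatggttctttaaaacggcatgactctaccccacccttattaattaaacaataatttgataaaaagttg
CG34260, chr3L:20711579-20711678: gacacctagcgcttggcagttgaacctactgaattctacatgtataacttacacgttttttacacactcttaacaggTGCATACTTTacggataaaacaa

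The most common 7-mers of the replicate 2 only sites held only A and T. AAAAAAT was in 31.2% of them, against 26.1% of the other strong replicate 2 sites and 14.8% of replicate 3 only sites, and AATTAAA was in 27.8%, against 20.4% and 7.22%. In replicate 3 only sites the most common 7-mer was CTCTCTC, the reverse complement of the GAGA repeat. Among 1748 7-mers present in at least 3% of replicate 2 only windows, AAGGGTG had the highest ratio to the other strong replicate 2 sites, with 8 sites (5.56%) against 0.595%. It was followed by ATCAGGA with 7 sites. The other 8 of the 10 highest were each in 5 to 11 sites. These are the extremes of a ranking and carry no test.

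The 3 sites farthest from replicate 3 lay in centromere-proximal stretches where replicate 3 listed no summit. Stretches of over 1 Mb with no replicate 3 summit were found at the centromere-proximal ends of both arms of chromosomes 2 and 3, 14.9 Mb in all and 10.8% of main-arm bases. They held 328 summits of replicate 2 (1.09% of its list), none of replicate 3, 92 of the pooled list and 1 of the optimal list. Whether reads in these stretches were kept or filtered alike in both replicates cannot be seen from the lists, so the 0 of replicate 3 is not shown to be a lack of binding. The longest stretch spanned 5.01 Mb of 3L, chr3L:23095361-28110227, with 149 replicate 2 summits. The 328 replicate 2 summits of all stretches were weak, with a median rank of 21819 of 30000, and 18.3% of them (14.3 to 22.9) lay at promoters. The promoter share of the whole replicate 2 list is not given here, so 18.3% is not shown to be low or high. Among the 328 were 4 strong sites, and with no replicate 3 summit in the stretches nearly any strong site there meets the rule. The 3 replicate 2 only sites among them were all at promoters, and were chosen for description after their distances were seen. UQCR-11, which codes for a subunit of respiratory complex III, had a summit 70 bp from its TSS with rank 2972, and l(3)80Fj a summit 116 bp away with rank 2981. Myo81F, a myosin gene at the base of 3R, had a summit 172 bp from its TSS with rank 3102. All were in the pooled list at ranks 5733, 4457 and 8730, and none was in the optimal list.
UQCR-11, chr3L:25120589-25120688: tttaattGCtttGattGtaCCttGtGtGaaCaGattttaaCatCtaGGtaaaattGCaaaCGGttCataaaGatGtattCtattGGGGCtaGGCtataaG
l(3)80Fj, chr3L:28012665-28012764: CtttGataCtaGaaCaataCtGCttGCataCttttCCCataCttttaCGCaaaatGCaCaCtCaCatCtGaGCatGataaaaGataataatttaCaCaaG

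**Figure D5:**
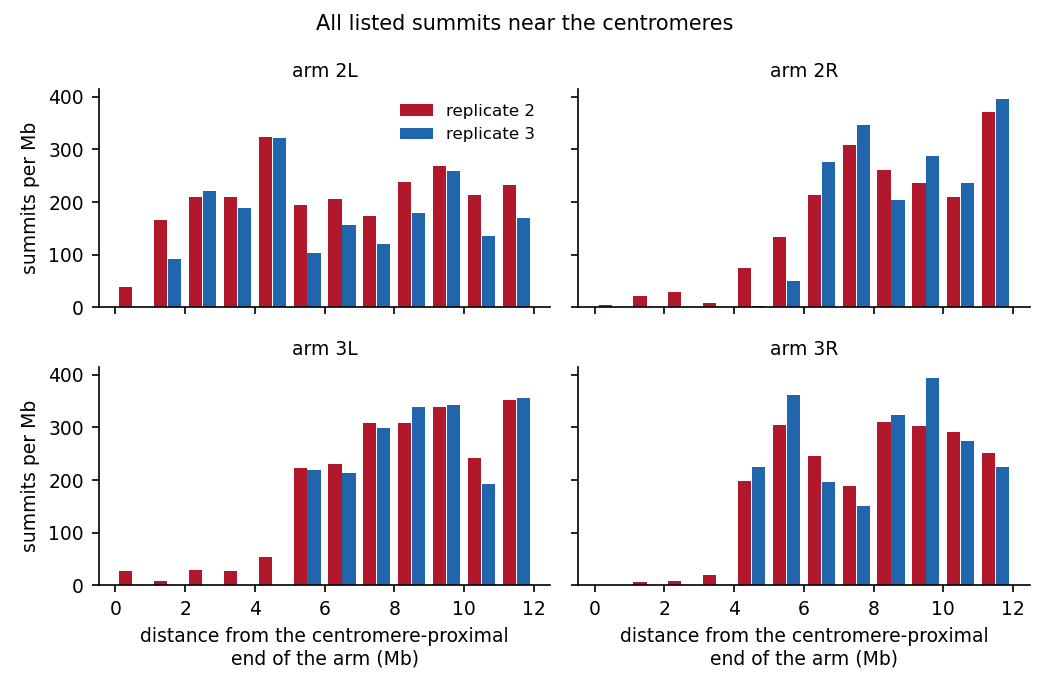
Summits per Mb (y axis) in the full lists of replicate 2 (red) and replicate 3 (blue) by distance from the centromere-proximal end of arms 2L, 2R, 3L and 3R (x axis, Mb). On 3L the first 5 Mb hold 27, 8, 29, 28 and 53 replicate 2 summits and 0 replicate 3 summits, and the next Mb holds 223 and 220.

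On build dm3, whose sequence was not used here, the same rule with the 2400 rows of that build's optimal list as the limit gave 71 sites (2.96%) for replicate 2 and 249 (10.4%) for replicate 3. The full dm3 lists differed in length, with 16963 rows for replicate 2 and 30000 for replicate 3. A shorter list offers fewer summits to match, so these shares cannot be compared directly between the replicates. The X held 23.9% of the replicate 2 only sites there, against 8.43% of the replicate 3 only sites. Sequences of dm3 named Het or U, which hold heterochromatin and unplaced DNA, held 77 of the 16963 replicate 2 rows (0.454%), against 12 of the 30000 replicate 3 rows (0.0400%).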

How the data were processed

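ChIP-seq peak lists of 2 biological replicates of hng2-GFP embryos were used, in 1 group. Per the file headers and the labels, the authors called relaxed lists of peaks on replicate 2, on replicate 3 and on both pooled, each against a control alignment, on dm6 and on dm3, and made optimal lists from them with IDR. The deposited signal is the authors' value per peak against the control. The deposited −log10 q-value per peak was not used to choose sites. Each summit came from the deposited offset column, counted in bp along the peak. Which caller, aligner and IDR threshold were used is not given in the sources used here. Read depth is unknown.

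Python 3.11.15 with numpy 2.4.6, pandas 2.3.3 and scipy 1.17.1 was used. Sites were joined to the Release 6 assembly (dm6) and its Ensembl release 115 annotation (FlyBase 6.54, 13968 protein-coding genes and 23694 TSS positions, transposable elements left out). Each summit took the first class that held it, in the order promoter, UTR upstream of the coding sequence, coding exon, UTR downstream of it, any further exon, intron, intergenic. Coordinates are 1-based. No test was run, since sites of a library are not replicates. Ratios of shares have 95% Katz intervals. Matching on rank weighted the other strong sites to the replicate 2 only sites over 10 equal bins of rank. Other limits, windows, list lengths and dm3 were tried as alternatives. The rule, the overlaps and the motif search were tested on simulated data.

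Named genes are those of the 25 sites of highest signal (the gene with a TSS within 2000 bp, else the gene around the site, else the nearest), up to 4 genes of each of 21 gene lists (739 of 748 entries found), the 3 sites on either side of each limit and the 10 7-mers of highest ratio. Sequences came from sites off arm 2R and clear of UTRs: the strongest of replicate 2 only and of replicate 3 only, the 2 strongest with the su(Hw) core within the 100 bases, and the 2 strongest in the centromere-proximal stretches. The sites and lists were chosen with earlier results of these data known.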

Additional observations from a re-analysis of the deposited data

How the results depend on the processing

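The number of replicate 2 only sites depended on the limits. With a limit of 100, 200, 1000 or 2000 bp to the nearest replicate 3 summit it was 589, 307, 56 or 30. Among the 1000 and the 2000 strongest peaks it was 4 and 35, and with the replicate 3 list held to its strongest peaks it was 1375. On dm3, where the strong peaks were 2400 and the replicate 2 list was shorter, it was 71. It was 165 by no overlap of intervals. The share in the optimal list was 47.2% at 100 bp and 100% of the 4 sites among the 1000 strongest peaks. The promoter share was 29.2% within 250 bp of a TSS and 54.9% within 1000 bp. The CTCF core was found in 0% of the sites among the 1000 strongest peaks and 0% of those in the optimal list. Motif shares of replicate 2 only sites were lower in windows of 100 bp and higher in windows of 400 bp for TATA, homeodomain, GAGA and su(Hw) letters, since a wider window holds more sequence, and were not compared between sets at those widths. In the 6 alternatives each that were tried, the X share (16.5 to 28.6%) moved by less than its interval, and the median GC content minus that of replicate 3 only sites (-15.0 to -7.8 percentage points) kept its sign. The GC alternatives, and leaving out the 3 sites in the centromere-proximal stretches (promoter share 43.3%), were chosen after seeing the data. No paired analysis was possible because both replicates form 1 group. No value could be had without a replicate, since the rule needs both. Unknown depth limits every statement on a site missing from a list.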
